A study of Homo sapiens with 6 samples.

Results

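The genes described here are MAP2K6, its related kinases MAP2K3 and MAP2K4, the p38 kinases MAPK11, MAPK12 and MAPK14, the p38 substrate kinase MAPKAPK2, and the dual-specificity phosphatases DUSP1, DUSP6 and DUSP10. They are 10 listed genes of the p38 pathway and its phosphatases, and 9 of them, out of 14883 genes with a named probe set on the array, could be followed; MAPK14 was not analysed here. Each of the 9 had 1 named probe set, so that the rule of keeping the brightest probe set per gene left no choice among several. The set was selected on measured values, namely the differences between shBRG1 and NSC on these same arrays, and MAP2K6 stood among the largest increases of the series. Their differences are therefore given as a description, with an error and without a test.

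Expression was measured in SK-N-BE(2), an established human neuroblastoma cell line, after infection with a pLKO lentivirus that carried either a non-silencing control hairpin (NSC, n = 3 samples) or a hairpin against BRG1 (shBRG1, n = 3 samples). BRG1 drives SWI/SNF chromatin remodelling as its ATPase. Both groups had been infected, and RNA was taken 48 h later, with 200 ng of total RNA per array. The labels name 1 BRG1 hairpin vector. Whether the triplicate infections were handled as separate cultures is not stated, so that p-values reflect the spread of these samples alone, and that spread may be technical.

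The p38 kinases are stress-activated MAP kinases at the end of a relay of kinases. A MAP3K phosphorylates a MAP2K, the MAP2K phosphorylates p38 on a threonine and a tyrosine, and p38 then acts on substrate kinases such as MK2 and on transcription factors. MKK3 and MKK6, the products of MAP2K3 and MAP2K6, act mainly on p38, whereas MKK4, the product of MAP2K4, acts on both JNK and p38. Dual-specificity phosphatases remove both phosphates and end the signal, and several of their genes are themselves switched on by MAP kinase signalling. Transcript levels, which are what was measured here, do not report the phosphorylation on which this pathway runs.

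Expression is given as deposited, in log2 units for each probe set. The medians of the 6 arrays lay between 3.77 and 3.84, and arrays of a group resembled each other more (Pearson r across probe sets 0.9907 to 0.9925) than arrays of different groups (0.9860 to 0.9881). BRG1's own transcript was not analysed here, so the groups rest on the labels alone. The measured markers of sympathetic neuroblasts, 10 of 11 listed, were all brighter than the median gene. In limma at an adjusted p of 0.05 over all genes, 7 of the 10 fell with the BRG1 hairpin, where 7.19% of all genes fell. The other 3, GATA3 (0.21), TH (0.11) and DBH (0.08), had positive differences that did not pass. The 7.19% takes in genes dimmer than the median gene, so it is not matched in level to these 10. The same holds for the 9.78% given below. The mean log2 level of the 10 neuroblast markers was 9.57 to 9.60 on the NSC arrays and 9.29 to 9.33 on the shBRG1 arrays. The 2 measured of 7 fibroblast and mesenchymal markers (DCN and LUM) both rose, where 9.78% of all genes rose, with a mean of 6.52 to 6.70 in NSC and 6.94 to 7.11 in shBRG1. The 5 measured of 7 Schwann and glial markers averaged 4.179 to 4.221 and 4.002 to 4.032, and the 2 measured of 5 leukocyte markers 4.68 to 4.72 and 4.57 to 4.63. In a bulk sample, fewer cells of a type and less RNA per cell cannot be told apart, and the part of these marker shifts in the results that follow was not tested.

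Among the 9 measured genes MAP2K6 stood highest in shBRG1 relative to NSC, MAP2K3 was higher to a smaller degree, and DUSP6 stood lowest. The p38 kinases MAPK11 and MAPK12 and the substrate kinase MAPKAPK2 differed by 0.18 or less on the log2 scale in either direction. The median difference of the 9 genes was 0.09, against 0.01 over all 14883 genes. In the limma fit across all genes 3 of the 9 passed an adjusted p of 0.05, 2 higher and 1 lower, where 17.0% of all genes passed (9.78% higher and 7.19% lower). The shBRG1 values lay outside the NSC range for 5 of the 9, 2 higher and 3 lower, where this held for 35.5% of all genes (20.3% higher and 15.3% lower). Without NSC replicate 2 or 3 or any 1 of the shBRG1 arrays 1 of the 9 was called higher in place of 2, and without NSC replicate 2 there were 2 lower in place of 1. There were also 2 lower after cyclic loess, with trend and robust options and with array weights. With dim genes left out, 6 of the 9 were tested, of which 1 was called higher and 2 lower. Since the genes were chosen with these differences in view, nothing is read from these counts.

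**Figure D1:**
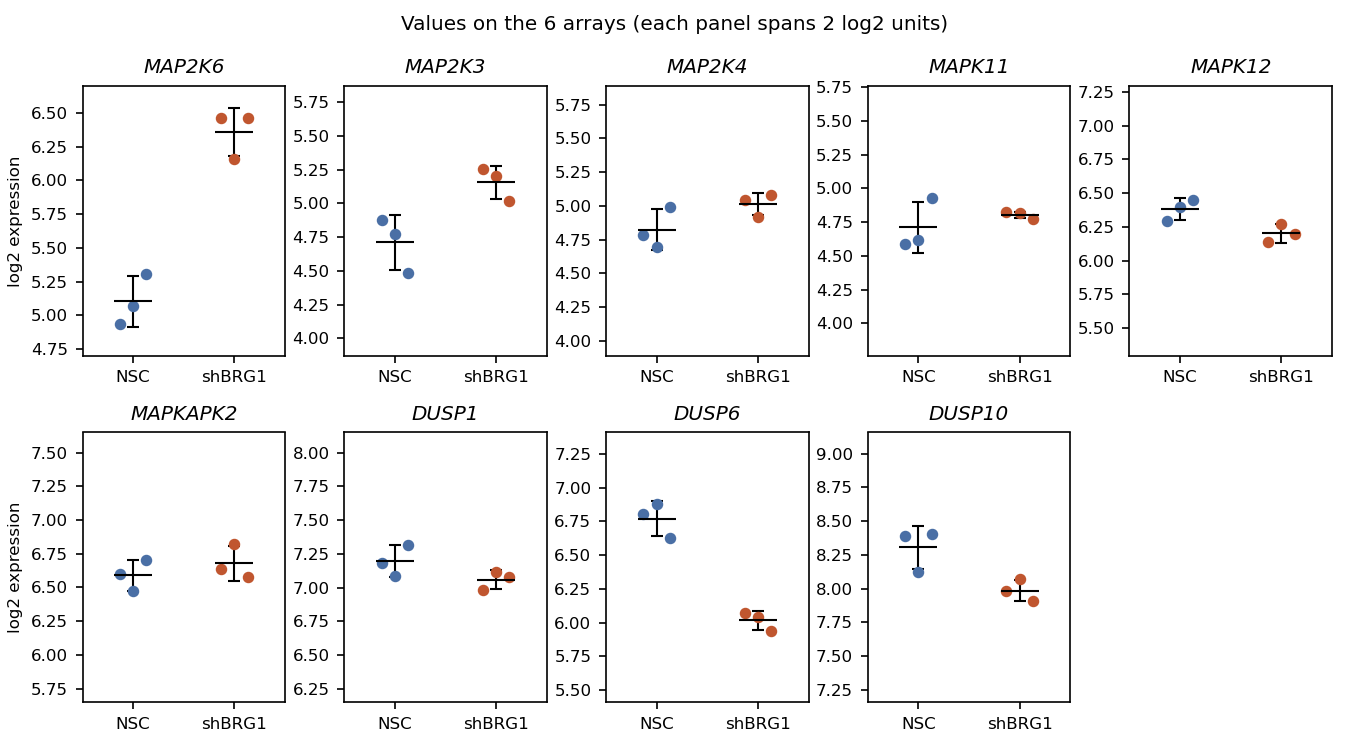
Log2 expression of the 9 measured genes on each of the 6 arrays, with NSC in blue and shBRG1 in orange; black lines are means and bars 1 SD (n = 3), and every panel spans the same range of 2 log2 units. The groups stand apart widely for MAP2K6, with every shBRG1 array at or above 6.16 and every NSC array at or below 5.31, and for DUSP6 in the other direction.

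MAP2K6, which encodes the p38 activator MKK6, had log2 values of 4.94, 5.07 and 5.31 on NSC arrays 1 to 3. On shBRG1 arrays 1 to 3 it had 6.46, 6.16 and 6.46. All 3 shBRG1 arrays were thus high, and the lowest of them lay 0.85 above the highest NSC array. The means were 5.11 ± 0.19 in NSC and 6.36 ± 0.18 in shBRG1 (SD, n = 3), a difference of 1.25 on the log2 scale (SE 0.12, 95% interval 0.96 to 1.54), or 2.38-fold. By size this was rank 8 of the 14883 genes among those higher in shBRG1, in a series where 0.692% of all genes differed by 2-fold or more. Leaving out each array in turn gave 1.17 to 1.36. In NSC the gene lay close to the level of the median gene (5.09), so part of its signal there may be background.

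MAP2K3, which encodes MKK3, the closest relative of MKK6, had values of 4.88, 4.77 and 4.49 in NSC and 5.25, 5.20 and 5.01 in shBRG1. The groups did not overlap, but by a gap of 0.13 only. The difference was 0.44 (SE 0.12, 95% interval 0.17 to 0.72), or 1.36-fold, and 0.33 to 0.53 with each array left out in turn. MAP2K4, which encodes MKK4, had values of 4.78, 4.70 and 4.99 in NSC and 5.04, 4.92 and 5.08 in shBRG1. These ranges overlapped, and the difference of 0.19 (SE 0.10, 95% interval -0.03 to 0.41) did not exclude 0. The intervals of MAP2K6 and MAP2K3 do not meet, which describes the order of sizes within this family without a test of that order.

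The sequence before the start site is shown for MAP2K6 and MAP2K3 because these 2 MAP2K genes stood higher together, and it lets their promoters be set side by side. Each run holds the 250 bases before the annotated start, 5′ to 3′ in the direction of transcription, from RefSeq on GRCh38.p14, on the plus strand (chr17:69414447-69414696 for MAP2K6 and chr17:21284461-21284710 for MAP2K3). RefSeq lists 2 start sites for each of them, and the outermost is shown. Capitals mark matches, on either strand, to any of 8 short motifs, namely the CRE (TGACGTCA), its core (TGACG), the AP-1 site (TGANTCA), an ETS site (CCGGAAG), the GC box (GGGCGG), the E-box (CACGTG), the CCAAT box (CCAAT) and the TATA box (TATAAA). The CRE contains its core.
MAP2K6: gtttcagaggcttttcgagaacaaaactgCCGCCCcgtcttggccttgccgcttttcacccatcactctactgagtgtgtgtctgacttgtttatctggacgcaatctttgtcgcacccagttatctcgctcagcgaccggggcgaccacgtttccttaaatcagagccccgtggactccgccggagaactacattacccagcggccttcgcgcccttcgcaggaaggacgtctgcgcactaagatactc
MAP2K3: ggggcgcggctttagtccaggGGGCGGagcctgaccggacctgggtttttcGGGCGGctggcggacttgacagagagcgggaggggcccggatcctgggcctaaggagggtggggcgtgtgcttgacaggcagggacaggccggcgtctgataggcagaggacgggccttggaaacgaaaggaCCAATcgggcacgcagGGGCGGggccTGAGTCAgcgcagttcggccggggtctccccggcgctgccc

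The MAP2K6 window held 1 GC box, starting at position -221 from the start site, and no other match. The MAP2K3 window held 3 GC boxes (at -229, -199 and -51), 1 CCAAT box at -67 and 1 AP-1 site at -41. A GC box was present in 42.6% of 35116 promoter windows of the same length, a CCAAT box in 32.0% and an AP-1 site in 6.57%. The MAP2K6 window was 55.6% G and C with 20 CpG dinucleotides, and the MAP2K3 window 70.4% with 22, against medians of 58.0% and 11 over all windows. The 2 outermost windows thus shared the GC box among the motifs searched and were both above the median in CpG. The windows of the inner start sites held no GC box and lay below that median, with 3 CpG dinucleotides for MAP2K6 and 5 for MAP2K3. Neither shared trait was particular to this pair. The outermost windows of MAP2K4, MAPK11, MAPK12, MAPK14, DUSP1 and DUSP10 also held a GC box, with 18 (DUSP10) to 37 (MAPK12) CpG dinucleotides. The DUSP6 window held no GC box and 16 CpG dinucleotides, also above the median. A match describes letters in the window, not a bound site.

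MAPK11 and MAPK12 encode p38β and p38γ, and neither was far from its NSC level. MAPK11 had values of 4.59, 4.61 and 4.93 in NSC and 4.82, 4.81 and 4.77 in shBRG1, so that the 3 shBRG1 values fell within the NSC range. Its difference was 0.09 (SE 0.10, 95% interval -0.14 to 0.33). MAPK12 was lower in shBRG1 on every array, with 6.30, 6.40 and 6.45 in NSC and 6.14, 6.28 and 6.20 in shBRG1, but the groups were 0.02 apart and the difference was -0.18 (SE 0.08, 95% interval -0.35 to -0.004). The p38δ gene MAPK13, which is not among the 10 listed genes, had a difference of -0.08 (SE 0.12, adjusted p = 0.72). MAPKAPK2, which encodes the p38 substrate kinase MK2, had values of 6.60, 6.47 and 6.70 in NSC and 6.64, 6.82 and 6.58 in shBRG1. Its groups overlapped, and its difference of 0.09 had a 95% interval of -0.13 to 0.31, so a level more than 0.31 higher lay outside the interval. MAPK11, MAPK12, MAPK13 and MAPKAPK2 thus had differences far smaller than that of MAP2K6, while the p38α gene MAPK14, which also acts after it, was not analysed here.

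**Figure D2:**
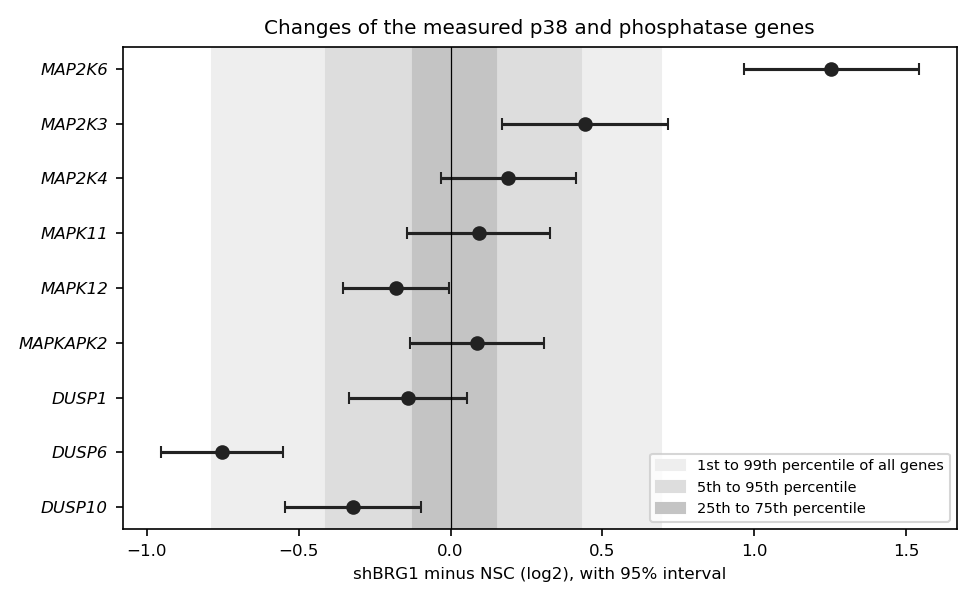
Difference between shBRG1 and NSC in log2 units for each measured gene, with its 95% interval from the moderated standard error; grey bands show the percentile ranges of all 14883 genes named in the legend. MAP2K6 (1.25) lies beyond the 99th percentile (0.69), DUSP6 (-0.75) lies between the first percentile (-0.78) and the fifth (-0.41), and 5 of the other 7 genes lie within -0.18 to 0.19.

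Of the 3 phosphatases, DUSP6 differed most. DUSP6 encodes MKP-3, a cytoplasmic phosphatase that is selective for ERK and whose transcription is a known negative feedback of ERK signalling. It had values of 6.80, 6.88 and 6.63 on the NSC arrays and 6.07, 6.04 and 5.94 on the shBRG1 arrays. All 3 shBRG1 arrays were low, with a gap of 0.55 to the nearest NSC array. The means were 6.77 ± 0.13 and 6.02 ± 0.07 (SD, n = 3), a difference of -0.75 (SE 0.09, 95% interval -0.95 to -0.55), or 1.68-fold lower, and -0.82 to -0.70 with each array left out in turn. It was rank 174 of 14883 among the genes lower in shBRG1.

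DUSP10 encodes MKP-5, which is selective for p38 and JNK, and had 8.39, 8.12 and 8.40 in NSC and 7.98, 8.07 and 7.91 in shBRG1. Every shBRG1 array was below every NSC array, by a gap of 0.05, and NSC replicate 2 was the nearest. The difference was -0.32 (SE 0.10, 95% interval -0.55 to -0.10). With each array left out in turn it was -0.41 to -0.27. DUSP1 encodes MKP-1, an inducible nuclear phosphatase of p38 and JNK, and had 7.19, 7.09 and 7.32 in NSC and 6.98, 7.12 and 7.08 in shBRG1. The ranges overlapped, and the difference was -0.14 (SE 0.08, 95% interval -0.33 to 0.06). All 3 phosphatases thus had lower means in shBRG1, with groups that stood well apart for DUSP6 alone among them.

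DUSP1 and DUSP6 are both known as genes induced by MAP kinase signalling, and their windows are shown because the differences of the 2 genes were unequal. They hold the 250 bases before the start from RefSeq on GRCh38.p14, on the minus strand, at chr5:172771196-172771445 for DUSP1 and chr12:89352502-89352751 for DUSP6, with capitals for the same motifs.
DUSP1: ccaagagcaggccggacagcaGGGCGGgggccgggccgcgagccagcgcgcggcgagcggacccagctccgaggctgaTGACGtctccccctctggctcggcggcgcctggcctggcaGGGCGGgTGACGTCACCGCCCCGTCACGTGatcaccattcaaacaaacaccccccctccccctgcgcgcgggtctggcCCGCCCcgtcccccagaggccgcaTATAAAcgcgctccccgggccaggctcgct
DUSP6: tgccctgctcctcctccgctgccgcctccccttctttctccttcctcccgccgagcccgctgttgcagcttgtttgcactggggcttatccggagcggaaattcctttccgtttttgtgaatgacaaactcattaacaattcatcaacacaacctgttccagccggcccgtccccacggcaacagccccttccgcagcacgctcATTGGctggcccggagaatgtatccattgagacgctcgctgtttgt

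The DUSP1 window held a whole CRE at -125, a sequence bound by CREB and ATF factors and present in 1.65% of all windows. It also held 4 matches to the core (at -172, -125, -122 and -111, the 2 middle ones both inside the CRE), where 21.2% of windows hold at least 1. An E-box at -108, 4 GC boxes and a TATA box at -30 completed its matches. The DUSP6 window held only a CCAAT box, at -46, among the motifs searched. Among the 9 listed genes found in the promoter table, a whole CRE was present in the DUSP1 window alone, and MAPKAPK2 had no entry. No exact match to the 1 ETS sequence searched, CCGGAAG, was found in any of the windows of these genes, where 8.52% of all windows hold at least 1. Other forms of an ETS site were not sought.

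The other phosphatases of the MAP kinase phosphatase family were measured in full, which places DUSP1, DUSP6 and DUSP10 among their relatives. Of 8 further genes of the list, including the catalytically inactive STYXL1, 2 rose, 2 fell and 4 did not pass the threshold of the limma fit adjusted over all genes, which 17.0% of all genes passed. DUSP7, which encodes the ERK-selective cytoplasmic phosphatase MKP-X, fell from 6.99 ± 0.06 to 6.60 ± 0.05 (-0.39, SE 0.07, adjusted p = 0.0087). DUSP5, a nuclear ERK phosphatase, had 5.86, 5.39 and 5.47 in NSC and 5.07, 5.03 and 4.89 in shBRG1, and fell by 0.58 on the log2 scale (SE 0.13, adjusted p = 0.022). DUSP9, the remaining member of the cytoplasmic ERK-selective group beside DUSP6 and DUSP7, had a difference of -0.12 (adjusted p = 0.30).

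DUSP16, which encodes the JNK- and p38-selective MKP-7, rose from 6.41 ± 0.08 to 6.85 ± 0.11 (0.44, SE 0.08, adjusted p = 0.011), whereas its relative DUSP10 was lower in shBRG1, as given above. DUSP8, of the same group, had a difference of 0.20 (adjusted p = 0.38). Among the inducible nuclear phosphatase genes, DUSP5 fell, as given above. In the same group DUSP2 (-0.06, adjusted p = 0.74) and DUSP4 (-0.08, adjusted p = 0.53) did not pass, and DUSP1 also lay close to its NSC level. STYXL1 rose (0.37, adjusted p = 0.022). DUSP5 was no longer called when any 1 of the shBRG1 arrays was left out (adjusted p up to 0.075) and with all of its probe sets averaged (-0.32, adjusted p = 0.10), and STYXL1 when NSC replicate 2 or 3, or shBRG1 replicate 1 or 3, was left out (up to 0.069).

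**Figure D3:**
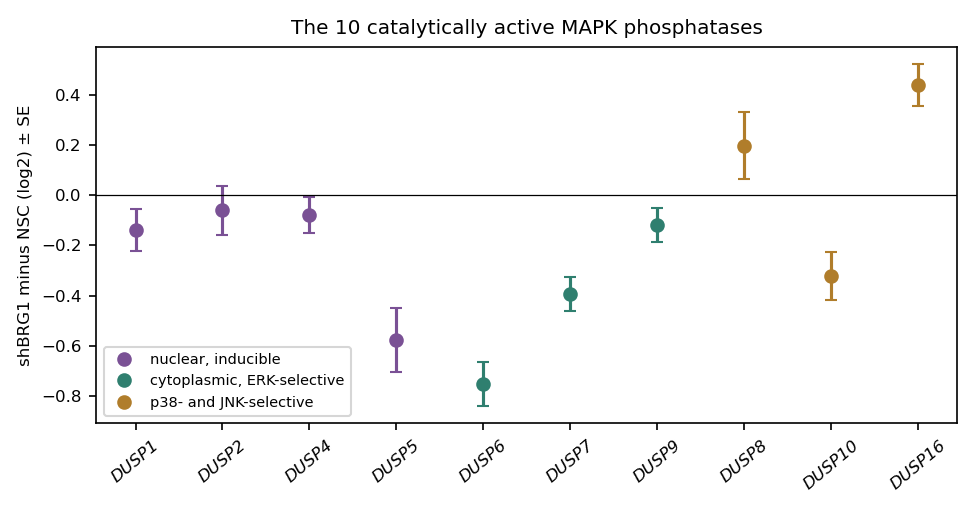
Difference between shBRG1 and NSC in log2 units for the 10 catalytically active MAP kinase phosphatases, with bars of 1 SE from the limma fit, coloured by the usual grouping of the family. All 3 ERK-selective cytoplasmic members have a negative difference (-0.75, -0.39 and -0.12), and the p38- and JNK-selective members lie on both sides of 0 (0.20, -0.32 and 0.44). The nuclear, inducible members DUSP1 (-0.14), DUSP2 (-0.06), DUSP4 (-0.08) and DUSP5 (-0.58) also have negative differences.

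The transcripts that serve as readouts of ERK signalling were described next, since DUSP6 belongs to the same feedback. Of 15 measured genes of ERK feedback and output, 6 passed as lower, 0 as higher and 9 not at all in limma, where 7.19% of all genes passed as lower and 9.78% as higher. At an unadjusted p under 0.05 the counts of the list were also 6 and 0. The list's median difference was -0.18. EGR1, an immediate early transcription factor, was 2.98-fold lower, with 8.61, 8.65 and 8.33 in NSC and 6.78, 7.05 and 7.04 in shBRG1 (-1.57, SE 0.11, adjusted p = 0.000345). All 3 shBRG1 values lay more than 1 log2 unit below the lowest NSC value.

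Sprouty proteins are induced inhibitors of receptor tyrosine kinase signalling to ERK, and SPRY4 fell from 9.53 ± 0.02 to 8.95 ± 0.06 (-0.59, SE 0.07, adjusted p = 0.0017). The immediate early genes IER2 (-0.70, adjusted p = 0.0027) and IER5 (-0.56, adjusted p = 0.0034) fell as well. The remaining pair, named after their values were seen, was SPRY2 (-0.41, adjusted p = 0.0063) and the ETS factor gene ETV5 (-0.51, adjusted p = 0.0057). The count of 6 lower and 0 higher was the same under every alternative run, each left-out array included. FOS (0.21, adjusted p = 0.29) and FOSL1 (0.04, adjusted p = 0.80) did not pass, nor did the ETS factor genes ETV1 (0.13) and ETV4 (-0.13) or CCND1 (-0.05). 

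Upstream of MAP2K6, 3 of 23 measured MAP3K genes and activators rose, 2 fell and 18 did not pass, and the median difference was -0.05. The share that passed was 21.7%, near the 17.0% of all genes. TAB1, a partner of the MAP3K TAK1 that can also bind p38α, rose from 6.56 ± 0.01 to 6.99 ± 0.14 (0.43, SE 0.08, adjusted p = 0.014). TAOK2, a MAP3K known to activate MKK3 and MKK6, rose by 0.34 (adjusted p = 0.015), and MAP3K9, a mixed-lineage kinase, by 0.44 (adjusted p = 0.011) from a dim level of 3.96. TAB2, another partner of TAK1, fell (-0.30, adjusted p = 0.034), as did MAP3K21 (-0.35, adjusted p = 0.036), which was dim at 3.25 in NSC.

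The TAK1 gene MAP3K7 itself (-0.03, adjusted p = 0.80) and the ASK1 gene MAP3K5 (0.03, adjusted p = 0.88) did not pass. TAB2 lost its call without any 1 of the 6 arrays (adjusted p up to 0.10), MAP3K21 without any 1 of 5 arrays, shBRG1 replicate 1 excepted (up to 0.096), and TAOK2 without shBRG1 replicate 2 or 3 (up to 0.054). With the replicate number as a block TAB2, MAP3K21 and TAOK2 lost their calls too, and TAB2 also after centring. TAB1 was no longer called with its probe sets averaged (0.27, adjusted p = 0.12). With single arrays left out, between 0 and 1 genes of this list fell in place of 2.

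Downstream of p38, 4 of 17 measured effectors and targets rose, 3 fell and 10 did not pass, with a median difference of 0.03. The share that passed was 41.2%, beside 17.0% of all genes. The transcription factors MEF2A and MEF2D, both p38 substrates of the same family, moved in opposite directions. MEF2D rose from 7.31 ± 0.03 to 8.06 ± 0.05 (0.75, SE 0.06, adjusted p = 0.000617), and MEF2A fell from 7.002 ± 0.057 to 6.305 ± 0.083 (-0.70, SE 0.07, adjusted p = 0.0014). MKNK2, a kinase of the translation factor eIF4E that p38 and ERK activate, rose by 0.56 (adjusted p = 0.0042), and MAX, the partner of MYC, by 0.38 (adjusted p = 0.0068). IER3, a stress-induced early response gene, fell (-0.68, adjusted p = 0.0055).

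The relatives of MAPKAPK2 divided. MAPKAPK3, the closest relative of MK2, fell (-0.30, adjusted p = 0.028), and MAPKAPK5 rose just past the threshold (0.23, adjusted p = 0.0499). MAPKAPK3 lost its call without any 1 of 5 arrays, shBRG1 replicate 2 excepted (adjusted p up to 0.095), and after centring. MAPKAPK5 lost it without any 1 of the 6 arrays (up to 0.13), after centring, after cyclic loess and with array weights. Both MAPKAPK3 and MAPKAPK5 also lost it with the replicate number as a block. The small heat shock protein gene HSPB1, whose product MK2 phosphorylates, had a difference of -0.04 (adjusted p = 0.72). The p38-responsive transcripts PTGS2 (2.56 in NSC and 2.46 in shBRG1) and CXCL8 (2.39 and 2.44) were below the array medians in both groups, so these arrays hold little signal from them in either group.

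MKK4 also feeds the JNK arm, in which 2 of 9 measured genes rose, 3 fell and 4 did not pass (median difference 0.02, 55.6% passed, beside 17.0% of all genes). SH3RF1, a scaffold protein of the JNK relay also called POSH, was 1.98-fold lower, from 7.81 ± 0.07 to 6.82 ± 0.13 (-0.99, SE 0.09, adjusted p = 0.000644). MAPK9, which encodes JNK2, fell (-0.53, adjusted p = 0.0041), as did the AP-1 subunit JUN (-0.41, adjusted p = 0.038). MAPK10, which encodes the neuronal kinase JNK3, rose from 3.02 ± 0.16 to 3.82 ± 0.15 (0.81, SE 0.11, adjusted p = 0.0032), with an NSC level below the array medians, so that the size of its rise rests on values that may be background. MAPK8IP3, the JNK scaffold JIP3, rose by 0.50 (adjusted p = 0.0069). JUN lost its call without any 1 of 5 arrays, shBRG1 replicate 2 excepted (adjusted p up to 0.10), and after centring. It also lost its call with the replicate number as a block.

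In the ERK arm 2 of 20 measured genes rose, 3 fell and 15 did not pass, with a median difference of -0.07. That is 25% of the list beside 17.0% of all genes. SHC1, an adaptor between receptor tyrosine kinases and RAS, fell from 9.35 ± 0.02 to 8.72 ± 0.13 (-0.63, SE 0.08, adjusted p = 0.0028). MAP2K1, which encodes the ERK activator MEK1, fell (-0.43, adjusted p = 0.014), as did the scaffold KSR1 (-0.39, adjusted p = 0.028). Among the MAP2K genes, MAP2K5, the activator of ERK5, rose (0.48, adjusted p = 0.033), and MAP2K2 did not pass (0.02, adjusted p = 0.92). NLK, a MAP kinase-like kinase known from WNT signalling, rose by 0.55 (adjusted p = 0.0052).

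MAP2K1 lost its call without shBRG1 replicate 1 or 3 (adjusted p up to 0.052), KSR1 when either of replicates 1 and 3 of either group was left out (up to 0.092), and MAP2K5 without any 1 of 5 arrays, shBRG1 replicate 1 excepted (up to 0.097). KSR1 also lost its call with the replicate number as a block. With single arrays left out, 1 to 4 genes of this list fell and 1 to 2 rose. The ERK2 gene was not analysed here, and the ERK1 gene MAPK3 had a difference of -0.07 (adjusted p = 0.59).

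Atypical dual-specificity phosphatases, which lack the kinase-binding domain of the MAP kinase phosphatases, numbered 15 measured genes, of which 3 rose, 2 fell and 10 did not pass (median difference -0.08). The share that passed was 33.3%, beside 17.0% of all genes. STYX, a catalytically inactive pseudophosphatase, was 1.89-fold lower, from 7.79 ± 0.05 to 6.87 ± 0.12 (-0.92, SE 0.08, adjusted p = 0.000649). DUSP26, which has been described to act on p38, fell from 8.39 ± 0.09 to 7.85 ± 0.02 (-0.54, adjusted p = 0.0030). DUSP22 (0.65, adjusted p = 0.021), DUSP18 (0.51, adjusted p = 0.027) and DUSP19 (0.65, adjusted p = 0.048) rose. With single arrays left out, 0 to 1 genes of this list rose and 2 fell.

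DUSP22 was no longer called when NSC replicate 1 or 2, or shBRG1 replicate 1 or 3, was left out (adjusted p up to 0.066). DUSP18 lost it without any 1 of 5 arrays, shBRG1 replicate 3 excepted (up to 0.082), and DUSP19 without any 1 of 5 arrays, shBRG1 replicate 1 excepted, after cyclic loess and with array weights (up to 0.14). DUSP19 lost it with the replicate number as a block as well. The 10 listed phosphatases of other families that act on MAP kinases, such as the PPM1 and PP2A enzymes, were not analysed here.

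Over all these lists together 37 of 107 measured genes (34.6%) passed, 16 higher and 21 lower, beside 17.0% of all genes, and the median difference was -0.06. Without shBRG1 replicate 3 the count was 24, of which 10 were higher and 14 lower, and without NSC replicate 2 also 10 were higher. The calls of the main fit thus went in both directions in every list but that of ERK feedback and output. That list also held positive differences that did not pass, such as FOS (0.21). Without NSC replicate 1, no MAP3K gene or activator was called lower and no atypical phosphatase higher. The 17.0% set beside the lists covers all genes, dim ones included. Of the 107 genes, 34 were dimmer than the median gene, from 1 of 8 further MAP kinase phosphatases to 8 of 15 atypical ones. With dim genes left out, these 34 included, 3201 of 7442 genes passed, 40 of them from the rest of these lists. The share of all genes that passed was then above 17.0%. The 17.0% is thus not matched in level, and the part of brightness in these shares was not tested. The lists were written with an earlier account of these data known, and the share is given as a description.

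**Figure D4:**
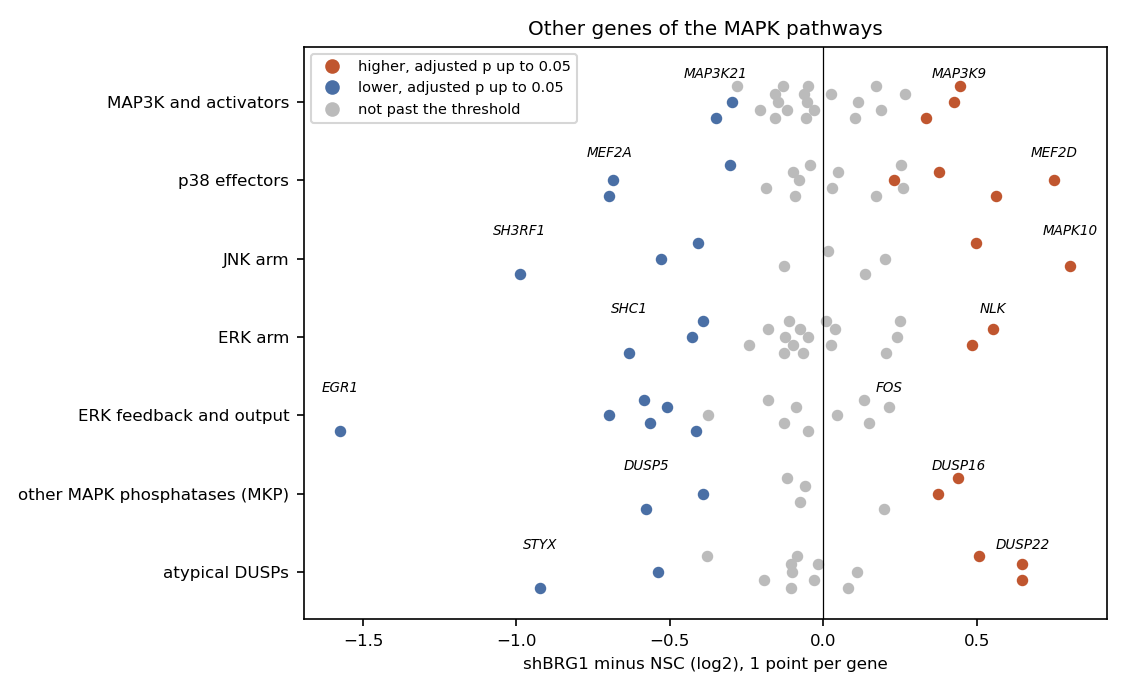
Difference between shBRG1 and NSC in log2 units for 107 other genes of the MAP kinase pathways, 1 point per gene, in 7 lists; orange and blue points passed an adjusted p of 0.05 in limma as higher or lower, grey points did not, and the lowest and highest gene of each list are named. The lists hold points of both colours, apart from ERK feedback and output, where 6 genes are lower and 0 higher.

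The genes whose 6 values were most like those of MAP2K6 were sought by the root mean square difference after each gene was centred on its own NSC mean. The 5 closest were NF2 (0.14), the tumour suppressor gene of merlin, ANKRD52 (0.16), HSD17B10 (0.17), DDA1 (0.17) and KLHDC3 (0.18), with differences between the groups of 1.31, 1.20, 1.08, 1.18 and 1.22. The 5 closest to DUSP6 were SPOPL (0.05), SYAP1 (0.07), NIN (0.07), WWC2 (0.07) and the cyclin gene CCNE2 (0.08), with differences from -0.76 (NIN) to -0.70 (SPOPL). The measure runs over 6 arrays in 2 groups, so it finds genes with a group difference of like size. None of the 10 is a gene of the MAP kinase lists.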

How the data were processed

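The 10 genes and the pathway lists were chosen with earlier results of these data known. The deposited table gives log2 expression for each probe set, 1 column per sample; per the submitters' processing notes the authors used RMA, oligo 1.27, limma 3.19 and R 3.1.0. RMA sets all arrays to a common distribution, which hides a shift common to all genes and can understate changes of dim probe sets. A platform annotation named 15828 of 52299 probe sets, with symbols updated through GRCh38.p14 gene identifiers. The brightest probe set per gene was kept, for 14883 genes, without a filter on dim genes.

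Groups were compared by lmFit and eBayes of limma 3.58.1 (R 4.3.3; two-sided, no covariates, Benjamini-Hochberg over all genes, threshold 0.05). With 3 against 3, the smallest exact permutation p is 0.1. The number of arrays limits the precision; the median standard error was 0.091. Named were all 10 listed genes, the 4 genes with the smallest p in each pathway list, every called gene of a list where 5 or fewer went one way, and the 5 genes closest in pattern to MAP2K6 and to DUSP6; values of other list members were added after they were seen. On simulated data for shBRG1 against NSC with 14883 genes, calls took in 54 of 100 genes with a set change of 0.5 and 88 of 100 with one of 1, with 5 false among 147 calls. The simulation changed far fewer genes than the 2525 called here and drew independent noise for each gene. Its rates therefore do not describe the fit to these data. Motifs were sought in 250 bases before each RefSeq start. Figures were drawn with matplotlib 3.10.9. Alternatives were centring, cyclic loess, a filter on dim genes, averaged probe sets, trend and robust options, array weights, the replicate number as a block, each array left out, every probe set, and an adjusted p of 0.01. The planned description of further probe sets was empty, since each gene had 1.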

Additional observations from a re-analysis of the deposited data

How the results depend on the processing

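None of the 9 listed genes with a probe set changed sign or moved by more than 1 SD between replicates under any alternative run; with single arrays left out the differences ranged from 1.17 to 1.36 for MAP2K6, from 0.33 to 0.53 for MAP2K3 and from -0.82 to -0.70 for DUSP6. The genes past the threshold numbered 2525, against 1086 at an adjusted p of 0.01, 1608 with the replicate number as a block, and 1604 to 1840 with single arrays left out. The higher share of calls was 57.6%, and 47.7% after cyclic loess. The pathway genes numbered 37 (16 higher and 21 lower), with 24 to 29 (10 to 12 higher and 14 to 18 lower) with single arrays left out and 29 with the replicate block. Same-numbered arrays of the 2 groups did not deviate together (correlations -0.04, -0.14 and -0.03), and no array of NSC resembled its own number most. With 3 arrays per group, centred within their group, this cannot settle whether the numbers pair the samples. Of the 35 pathway genes named by rule, 20 kept their call under all alternatives in which they were tested, 15 lost it under at least 1, and 0 changed sign; the cause was not tested. MAP2K3, MAP2K4 and MAPK11 were dimmer than the median gene (5.09) and gave no value with dim genes left out.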

Other observations

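Position was not used in choosing the genes, and coordinates are those of GRCh38.p14. MAP2K4 (chromosome 17, 12020877 to 12143828), MAP2K3 (21284711 to 21315240) and MAP2K6 (69414697 to 69553865) are all on chromosome 17, far apart. MAPK12 (50252901 to 50261683) and MAPK11 (50263713 to 50270380) are neighbours on chromosome 22 with 2029 bases between them, and differed by -0.18 and 0.09, neither past the threshold.

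The nearest protein-coding genes with a named probe set were looked up on both sides of each gene, after the values were seen. Those beside MAP2K6 moved in opposite directions in limma. ARSG, a sulfatase gene 962677 bases before it, rose by 0.58 (SE 0.08, adjusted p = 0.0032), and SOX9, a transcription factor gene 2567154 bases after it, fell by 0.49 on the log2 scale (SE 0.07, adjusted p = 0.0042). ZNF18, whose annotated span overlaps that of MAP2K4 by 651 bases, rose by 0.40 (SE 0.11, adjusted p = 0.045), beside a difference of 0.19 for MAP2K4. ZNF18 was no longer called when any array other than NSC replicate 3 was left out (adjusted p up to 0.12), or after cyclic loess. NEURL1B, a gene of a ubiquitin ligase beside DUSP1, fell by 0.51 on the log2 scale (SE 0.13, adjusted p = 0.038). It was no longer called when any array other than NSC replicate 2 was left out (adjusted p up to 0.12), or with its probe sets averaged (-0.27). ZNF18 and NEURL1B both lost their calls with the replicate number as a block. The neighbours of DUSP6, KITLG (-0.02) and POC1B-GALNT4 (-0.11), did not pass, nor did the other neighbours looked up.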
